A study of Homo sapiens with 6 samples.

Results

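The genes described are TNF, lymphotoxin beta (LTB), the TNF receptor-associated factors TRAF1, TRAF2 and TRAF3, the inhibitor of apoptosis (IAP) genes BIRC2, BIRC3 and XIAP, and the TNF-linked genes TNIP1 and TNFAIP2. They were chosen by gene name, with earlier results of these data known. All 10 were found, each in 1 row, among the 58735 genes of the deposited count table, and all 10 were among the 15271 genes tested. The cells were SKOV3ip1, a line of human ovarian adenocarcinoma derived from SKOV3, with the genotype given as WT. The labels name their source as tumors, while the protocols describe cultured cells. Each culture received 2 µg of siRNA by lipid transfection, against BARD1 in 1 group and a control in the other, and was taken after 48 h. Each group held 3 libraries, labelled as biological replicates. Both groups thus share the transfection, and they differ in the siRNA. The siRNA sequences were not used here, and whether BARD1 was targeted by 1 siRNA or a pool is not stated in the labels. One line, 1 time point and 1 comparison limit what the groups can stand for. Nothing in the labels says whether the replicates came from separate days, so the p-values reflect only how much these cultures varied.

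TNF is a cytokine that binds the receptors TNFR1 and TNFR2 as a trimer. At TNFR1 the adaptor TRADD brings in the kinase RIPK1 and TRAF2, and TRAF2 carries the ubiquitin ligases cIAP1 (BIRC2) and cIAP2 (BIRC3) to the complex. Their ubiquitin chains recruit the kinases that activate NF-κB, a transcription factor that in turn induces TNF, BIRC3, TRAF1 and several inhibitors of the pathway. A second complex of TRAF3, TRAF2 and the cIAPs keeps the kinase NIK (MAP3K14) low. XIAP binds and blocks caspases directly.

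The smallest library held 16621108 counts and the largest 17743404, and levels are given in CPM, a gene's share of its library's counts scaled to the usual unit. BARD1 itself was 5.98-fold lower with BARD1 siRNA, falling from 44.3 ± 5.85 CPM to 7.38 ± 2.04 CPM (SD, n = 3 per group; edgeR adjusted p = 1.21e-15). Of 10 listed markers of ovarian carcinoma lines 8 were tested, and each of these was at 42.5 CPM or more in both groups. KRT18 and PAX8 were higher with BARD1 siRNA (log2 fold changes 0.40 and 0.75), KRT7, KRT19, EPCAM and ERBB2 were lower (−0.98, −0.60, −0.24 and −0.14), and KRT8 and SOX17 did not pass; the part of these shifts in the results was not tested. The untested markers of that list, WT1 and MUC16, were nearly absent, with 25 and 12 counts over the control siRNA libraries. Because TNF and LTB are best known from leukocytes, 14 leukocyte markers were read as well. Their summed level was 1.11 to 1.88 CPM in control siRNA and 0.287 to 1.35 CPM in BARD1 siRNA libraries. PTPRC, CD3D, CD3E, CD68, LYZ, MS4A1, NKG7 and KLRD1 had 0 counts in each of the 6 libraries, a result under which up to 3 counts per group remain possible.

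Sequences upstream of the members are shown because the family is known for control by NF-κB. RefSeq promoter windows of 300 bases, with 250 before the annotated start, were found for all 10 members (17 windows, GRCh38.p14). The NF-κB consensus GGGRNNYYCC (R is A or G, Y is C or T, N is any base) was searched on both strands. Overlapping matches at different positions were counted separately. It was present in a window of 4 members, BIRC3, TNIP1, TRAF3 and LTB, and in a window of 13.3% of all 27305 genes. Counted by window, 11.3% of all 35116 windows of this length held it. BIRC3 held a pair of matches, starting 199 and 135 bases before the start site, and 2.04% of all windows held 2 or more. Capitals mark the matches in the sequences below, which read 5′ to 3′ on the strand of the gene.
BIRC3, plus strand, chr11:102317234-102317483: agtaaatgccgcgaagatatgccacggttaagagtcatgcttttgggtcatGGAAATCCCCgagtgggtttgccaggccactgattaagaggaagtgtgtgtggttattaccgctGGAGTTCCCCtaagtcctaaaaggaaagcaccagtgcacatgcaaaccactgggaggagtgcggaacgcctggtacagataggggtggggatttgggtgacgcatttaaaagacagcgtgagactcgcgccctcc
TNIP1, minus strand, chr5:151081042-151081101: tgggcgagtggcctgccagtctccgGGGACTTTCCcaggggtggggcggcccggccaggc
TRAF3, plus strand, chr14:102777391-102777448: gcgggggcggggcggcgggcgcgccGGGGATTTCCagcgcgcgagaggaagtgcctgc
LTB, minus strand, chr6:31582477-31582536: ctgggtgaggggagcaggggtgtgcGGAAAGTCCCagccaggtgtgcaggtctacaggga
LTB held a further match 38 bases after its start, outside the stretch shown. The windows of TNF, TRAF1, TRAF2, BIRC2, XIAP and TNFAIP2 held none, which says only that these letters are not in these windows.

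Of the 10 members 7 rose, 0 fell and 3 did not pass the test (edgeR quasi-likelihood, p adjusted over all tested genes). No member was lower at an unadjusted p under 0.05 or by DESeq2 either. TRAF1, TNF, BIRC3, TNFAIP2 and TNIP1 rose by 3.03-fold or more, BIRC2 and XIAP by less than 2-fold, and TRAF2, TRAF3 and LTB were not called. Among all tested genes 22% were called higher and 20.3% lower, or 42.3% in either direction. A called rise of at least 2-fold was reached by 5 members, against 4.48% of all tested genes. The 3 libraries of 1 group lay apart from the 3 of the other for the same 7 members, always with BARD1 siRNA higher. Such separation was found for 50.4% of all tested genes, and with BARD1 siRNA higher for 25.8%. The median log2 fold change was 1.45 over the members and −0.01 over all tested genes. TRAF1 and LTB passed the filter on low counts only through the BARD1 siRNA group. Of the 8 members that reach the minimum count of 10 in every control siRNA library, 6 were called higher, 4 of them by at least 2-fold, 6 did not overlap, and the median was 1.15. These are descriptions of a list chosen with earlier results of these data known. With upper-quartile factors the share of higher genes among all called genes was 41.5%, and with library size alone 42.2%, against 51.9% with the main scaling. The same members passed under these scalings.

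**Figure D1:**
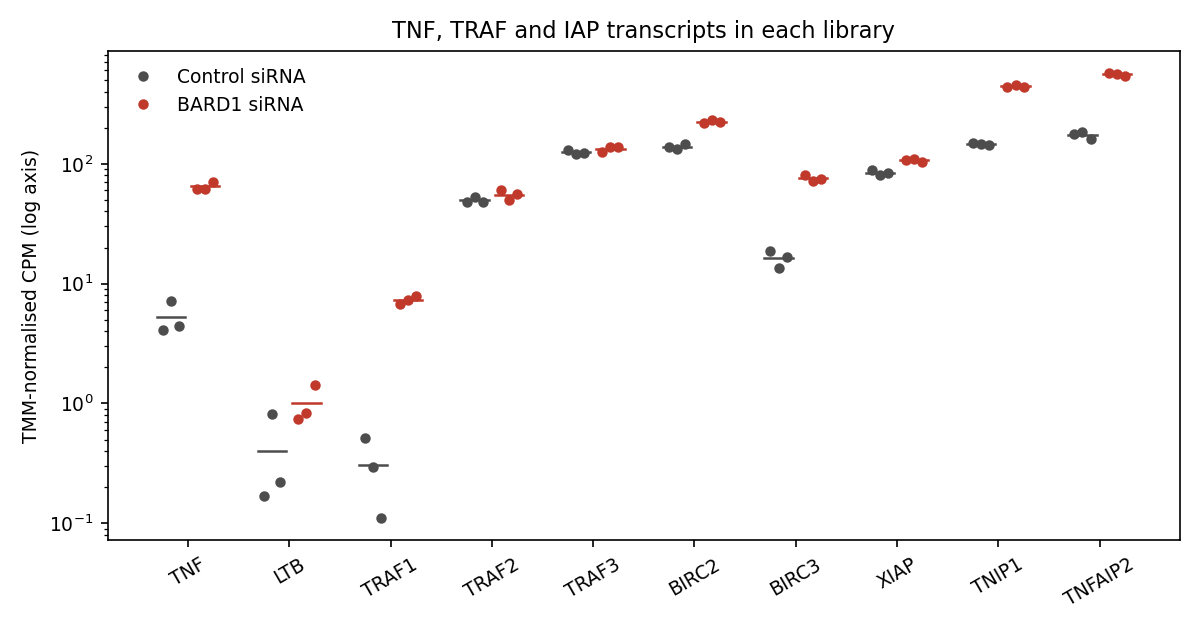
Normalised CPM of each member in each library, on a log axis, with control siRNA in grey and BARD1 siRNA in red; points are the 3 libraries of a group and lines their means. For TNF, TRAF1, BIRC2, BIRC3, XIAP, TNIP1 and TNFAIP2 the red points lie above all grey ones, and for TRAF2, TRAF3 and LTB the groups overlap.

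The cytokine genes came first. TNF (ENSG00000232810, GRCh38 chromosome 6, 31575567 to 31578336, plus strand) had 72, 122 and 80 counts in the control siRNA libraries and 997, 1048 and 1231 in the BARD1 siRNA libraries. On the CPM scale these were 4.10, 7.16 and 4.44 against 61.4, 62.1 and 70.7. Control siRNA replicate 2 was the highest of its group, and the lowest BARD1 siRNA library was still far above it. TNF rose 12.4-fold, with means of 5.23 ± 1.68 and 64.7 ± 5.21 CPM (SD over 3 libraries; log2 fold change 3.63, SE 0.13, edgeR adjusted p = 1.49e-21). Only 0.262% of tested genes had a larger log2 fold change. Without control siRNA replicate 2 the log2 fold change was 3.92. In bulk RNA, more cells that express TNF and more TNF mRNA per cell cannot be told apart, and this holds for every member.

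LTB (ENSG00000227507, chromosome 6, 31580525 to 31582522, minus strand) encodes the membrane partner of lymphotoxin alpha. It lies beside TNF on the opposite strand. Its counts were low, at 3, 14 and 4 in control siRNA and 12, 14 and 25 in BARD1 siRNA libraries. Control siRNA replicate 2 reached the level of BARD1 siRNA replicate 2, so the groups overlapped. The mean level was 0.405 ± 0.362 CPM against 1.00 ± 0.379 CPM, and the difference did not pass (log2 fold change 1.31, SE 0.59, edgeR adjusted p = 0.0684). It passed without control siRNA replicate 2, at a log2 fold change of 2.31 and an adjusted p of 0.0132. The range over all alternatives was 0.0132 to 0.324. LTB entered the test only through its BARD1 siRNA libraries, since 2 of its control siRNA counts lay below the minimum of 10. LTA, the soluble ligand gene on the other side of TNF, was not tested, with 13 counts summed over control siRNA and 16 over BARD1 siRNA libraries.

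The stretch around TNF was read further out. Within 150 kb of the TNF start, 13 other genes were tested, of which 5 were higher and 0 lower, with a median log2 fold change of 0.22. Over all tested genes 22% were called higher and 20.3% lower, with a median of −0.01. The largest of the 5 was MICB, a stress-induced ligand of the NKG2D receptor, at 0.67 (edgeR adjusted p = 0.00155). DDX39B at 0.24, BAG6 at 0.21, PRRC2A at 0.12 and CSNK2B at 0.29 were the other 4, named for their position and after their values were seen. DDX39B, PRRC2A and CSNK2B did not pass with upper-quartile factors or with library size alone. The calls of MICB and BAG6 held in all 14 alternatives.

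**Figure D2:**
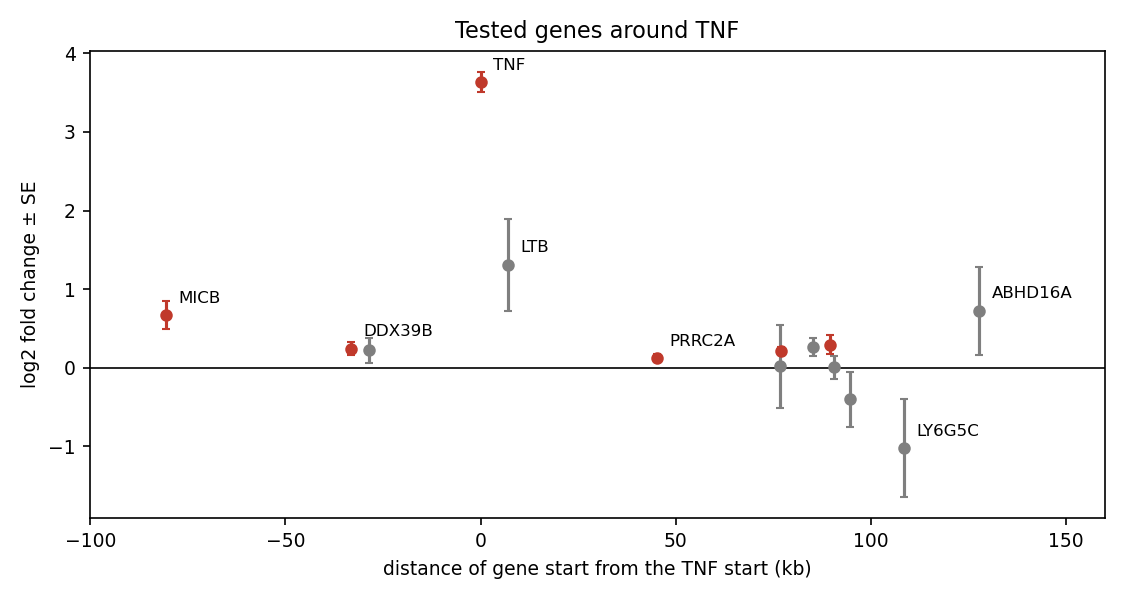
Log2 fold change with its SE of TNF and of the 13 tested genes that start within 150 kb of it, against the distance from the TNF start in kb; red points passed the test and grey points did not. TNF stands at 3.63, LTB at 1.31 and MICB at 0.67, and LY6G5C, which did not pass, is the lowest at −1.02.

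TNF mRNA is also known for rapid decay through AU-rich elements in its 3′ untranslated region. In the GENCODE release 29 transcript with the longest such region (799 bases), the motif TTATTTATT occurred 5 times, overlapping, within chr6:31578000-31578030. At least as many copies were found in 27 of 12720 tested genes with an annotated region, or 0.212%. BIRC3 and XIAP held 1 copy each and the other 7 members none, against 9.60% of tested genes with any. These are matches of letters in the reference and no measure of decay.

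The TRAF adaptors differed most among themselves. TRAF1 (ENSG00000056558, chromosome 9, 120902393 to 120929173, minus strand), which pairs with TRAF2 and lacks the RING domain of the other TRAFs, had 9, 5 and 2 counts in control siRNA libraries. In BARD1 siRNA libraries it had 110, 123 and 136. All BARD1 siRNA libraries lay above all control siRNA libraries. The mean rose from 0.306 ± 0.201 to 7.29 ± 0.522 CPM, a 23.4-fold increase (log2 fold change 4.55, SE 0.34, edgeR adjusted p = 2.61e-16). With so few control counts the size is loosely set, and its 95% interval ran from 14.5-fold to 37.9-fold.

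TRAF2 (ENSG00000127191, chromosome 9, 136881912 to 136926607, plus strand), the adaptor that carries the cIAPs, was at 47.9, 52.4 and 48.4 CPM in control siRNA libraries and at 60.2, 49.5 and 56.0 CPM in BARD1 siRNA libraries. The groups overlapped, and the difference did not pass (log2 fold change 0.16, 95% interval −0.00 to 0.32, edgeR adjusted p = 0.113). Without BARD1 siRNA replicate 2 it passed, at 0.23 with an adjusted p of 0.0404. The adjusted p of TRAF2 ranged from 0.0404 to 0.488 over all alternatives. TRAF3 (ENSG00000131323, chromosome 14, 102777476 to 102911500, plus strand), which holds NIK in check with TRAF2, was at 131, 121 and 123 CPM against 126, 138 and 137 CPM. These groups overlapped too (log2 fold change 0.09, 95% interval −0.02 to 0.21, edgeR adjusted p = 0.194). In the main fit the upper 95% bounds were 1.25-fold for TRAF2 and 1.16-fold for TRAF3.

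**Figure D3:**
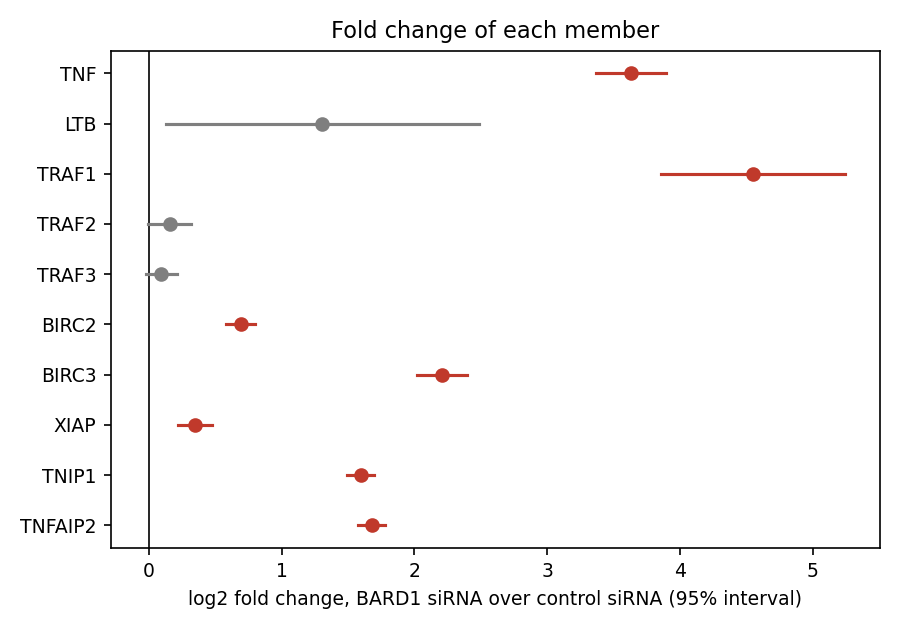
Log2 fold change of each member, BARD1 siRNA over control siRNA, with its 95% interval; red marks members that passed the test. TRAF1 at 4.55 and TNF at 3.63 stand apart, while the intervals of TRAF2 and TRAF3 reach down to 0 and that of LTB is the widest.

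The proportion of TRAF1 to TRAF2 was read within each library, where scaling between libraries plays no part. Counts per kb of TRAF1 over those of TRAF2 gave ratios of 0.00608, 0.00318 and 0.00130 in control siRNA libraries. In BARD1 siRNA libraries they were 0.0639, 0.0836 and 0.0793. The groups did not overlap. The control siRNA ratios rest on 16 TRAF1 counts in all, so the ratio is given as a description, and no support is drawn from its exact permutation test. Its log2 difference of 4.68 moved between 4.09 and 5.21 when 1 library was left out, the lowest without control siRNA replicate 3 and the highest without control siRNA replicate 1. Even so, TRAF1 remained far below TRAF2 in every library.

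The IAP genes rose by unequal amounts. BIRC3 (ENSG00000023445, chromosome 11, 102317450 to 102339403, plus strand), the inducible cIAP2, was at 18.7, 13.4 and 16.8 CPM in control siRNA libraries and at 80.3, 71.3 and 75.2 CPM in BARD1 siRNA libraries. The lowest BARD1 siRNA library was well above the highest control. The mean rose from 16.3 ± 2.67 to 75.6 ± 4.51 CPM, a 4.63-fold increase (log2 fold change 2.21, SE 0.09, edgeR adjusted p = 1.38e-25). BIRC2 (ENSG00000110330, chromosome 11, 102347211 to 102378670, plus strand) encodes cIAP1, the constitutive paralogue, and starts 29.8 kb downstream of the BIRC3 start. It was at 138, 132 and 145 CPM against 218, 230 and 224 CPM, again with no overlap. BIRC2 rose 1.62-fold, the means being 138 ± 6.71 and 224 ± 5.89 CPM (edgeR adjusted p = 7.10e-16). Both are products of a gene duplication, and reads that fit both could have been divided or dropped in counting, which was not tested.

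XIAP (ENSG00000101966, chromosome X, 123859724 to 123913979, plus strand), the direct caspase inhibitor, changed least of the 3. It was at 89.2, 79.9 and 84.0 CPM in control siRNA and at 108, 110 and 104 CPM in BARD1 siRNA libraries. The groups did not overlap, and XIAP rose 1.27-fold (log2 fold change 0.35 with an SE of 0.06, edgeR adjusted p = 6.07e-06). The log2 fold change was 0.28 with upper-quartile factors, where it still passed (adjusted p = 0.000168).

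Within libraries, counts per kb of BIRC3 were 0.0818, 0.0615 and 0.0696 of those of BIRC2 with control siRNA. With BARD1 siRNA the ratios were 0.222, 0.187 and 0.203. The ratio was 2.89-fold higher with no overlap (exact permutation test, two-sided, p = 0.10, n = 3 per group, the smallest that 3 against 3 libraries allow, and 0.10 when adjusted over the 2 ratios computed). In absolute terms BIRC2 gained more than BIRC3. Its level rose by 18.9 CPM per kb and that of BIRC3 by 7.88 CPM per kb.

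**Figure D4:**
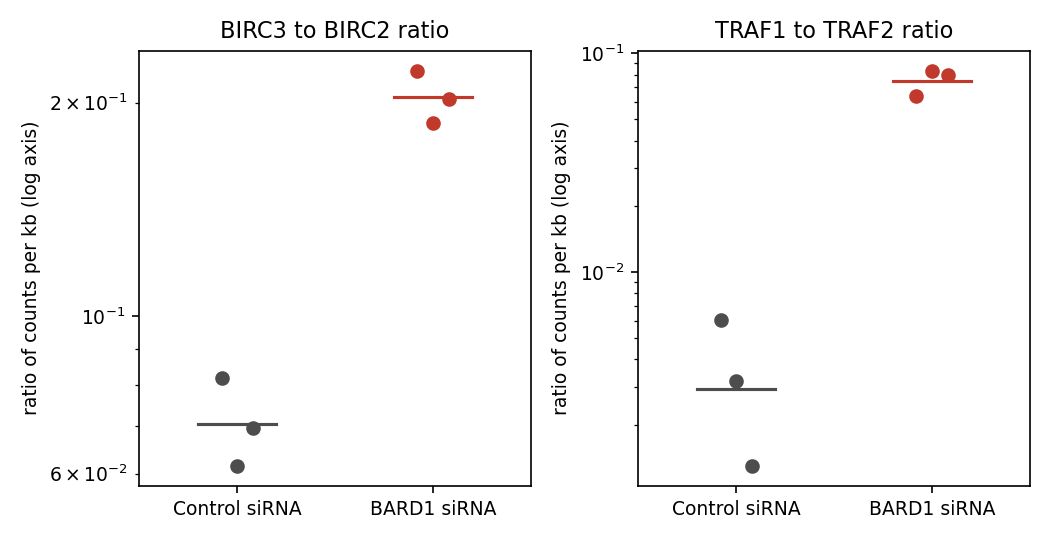
Ratio of counts per kb of BIRC3 to BIRC2 (left) and of TRAF1 to TRAF2 (right) in each library, on log axes; points are libraries and lines geometric means. The BIRC3 to BIRC2 ratio lies between 0.0615 and 0.0818 in control siRNA and between 0.187 and 0.222 in BARD1 siRNA libraries, and the TRAF1 to TRAF2 ratio rises from at most 0.00608 to at least 0.0639.

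The 2 remaining members act downstream of TNF. TNIP1 (ENSG00000145901, chromosome 5, 151029945 to 151093577, minus strand) encodes ABIN1, a ubiquitin-binding partner of the deubiquitinase A20 that restrains NF-κB. It was at 149, 145 and 144 CPM in control siRNA and at 439, 453 and 434 CPM in BARD1 siRNA libraries, with no overlap. It rose 3.03-fold (log2 fold change 1.60, SE 0.05, edgeR adjusted p = 2.61e-32). TNFAIP2 (ENSG00000185215, chromosome 14, 103123442 to 103137439, plus strand) was found as a gene induced by TNF in endothelial cells and encodes a protein related to an exocyst subunit. Its values of 178, 183 and 162 CPM compared with 572, 564 and 541 CPM. TNFAIP2 rose 3.20-fold (log2 fold change 1.68, SE 0.05, edgeR adjusted p = 8.41e-33).

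Levels of different genes were set side by side per kb of the gene length given in the table. In control siRNA libraries the order was TNFAIP2 at 34.7 ± 2.23 CPM per kb, BIRC2 at 30.5 ± 1.48, TNIP1 at 25.2 ± 0.491, TRAF3 at 15.1 ± 0.659, TRAF2 at 13.5 ± 0.682 and XIAP at 9.35 ± 0.517. TNF at 3.12 ± 1.00 and BIRC3 at 2.17 ± 0.355 CPM per kb followed and overlapped each other. LTB at 0.264 ± 0.236 and TRAF1 at 0.0474 ± 0.0312 CPM per kb came last. In BARD1 siRNA libraries TNF took rank 4, at 38.6 ± 3.11 CPM per kb, above TRAF3, TRAF2 and XIAP, and TNIP1 at 76.3 ± 1.75 stood above BIRC2 at 49.4 ± 1.30. TRAF3 at 16.2 ± 0.773 and TRAF2 at 15.1 ± 1.47 CPM per kb were the only neighbours in that order whose libraries overlapped. TNFAIP2 was highest and BIRC3 had rank 8 in both groups.

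Ligands and receptors around the members were read from lists written for this comparison, with members left out. For these and the lists that follow, the shares among all tested genes were 22% higher and 20.3% lower. Of 16 other TNF superfamily ligands only 5 were abundant enough to test, 1 higher and 1 lower, with a median of 0.17. CD70, the ligand of CD27, fell from 230 ± 5.32 to 157 ± 6.03 CPM (log2 fold change −0.55, edgeR adjusted p = 9.48e-13). TNFSF9, the 4-1BB ligand, rose 1.12-fold, a call that was lost with upper-quartile factors (adjusted p = 0.209), with library size alone (0.177) and in 6 further alternatives. Of 28 receptors 17 were tested, 11 higher and 2 lower, with a median of 0.61. The 2 lower were TNFRSF13C and TNFRSF19, named after their values were seen, and only 1 was called without control siRNA replicate 1 or 3 or without BARD1 siRNA replicate 1 or 3. TNFRSF9, the 4-1BB receptor, rose from 3.68 ± 0.514 to 18.8 ± 2.56 CPM and CD40 from 28.8 ± 3.98 to 85.5 ± 5.13 CPM. NGFR, the p75 neurotrophin receptor, rose from 10 to 80 counts summed over a group, and TNFRSF10B, a receptor of TRAIL, rose 4.91-fold. NGFR is part of the 11 higher receptors and of the median. It passed the filter on low counts only through the BARD1 siRNA group, with 4, 3 and 3 counts in control siRNA libraries. TNFRSF9, CD40, NGFR and TNFRSF10B were named for the size of their change. The receptors of the members' own ligands were read in any case. TNFRSF1A, which encodes TNFR1, was at 68.5 ± 1.77 and 74.4 ± 2.68 CPM and did not pass (log2 fold change 0.12, edgeR adjusted p = 0.156). TNFRSF1B, which encodes TNFR2, had 2 counts over control siRNA and 5 over BARD1 siRNA libraries and was not tested. LTBR, the lymphotoxin beta receptor, rose 1.53-fold (29.1 ± 2.13 and 44.4 ± 0.945 CPM, edgeR adjusted p = 7.91e-08). Its log2 fold change of 0.61 equals the median of the tested receptors.

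Among 34 tested genes of the receptor complex, its kinases and the enzymes that edit ubiquitin there, 18 were higher and 4 lower, with a median of 0.19. Over the alternatives 15 to 18 were higher and 2 to 4 lower, with 2 lower without control siRNA replicate 2. TNFAIP3, which encodes A20, rose 25.1-fold from 17.3 ± 1.47 to 436 ± 9.53 CPM. RBCK1, which encodes the HOIL-1 subunit of the linear ubiquitin ligase, rose 2.53-fold, TRAF3IP2, an adaptor of the interleukin-17 receptor, 2.16-fold, and the deubiquitinase CYLD 1.58-fold. RIPK1 was lower, with 63.2 ± 2.57 against 51.6 ± 2.44 CPM (log2 fold change −0.29, edgeR adjusted p = 0.00099). TRADD had a log2 fold change of −0.04 (edgeR adjusted p = 0.83), and MAP3K14, which encodes NIK, rose 1.14-fold (edgeR adjusted p = 0.0326). The call of MAP3K14 was lost in 7 alternatives, among them upper-quartile factors (adjusted p = 0.175).

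Other IAP genes and IAP antagonists were read as a list. Of 9 listed 6 were tested, 0 higher and 2 lower by edgeR, with a median of 0.06. At an unadjusted p under 0.05 AREL1, a ubiquitin ligase, was the 1 higher gene (log2 fold change 0.15, adjusted p = 0.0707), and DESeq2 called 0 higher. Leaving out 1 library gave 0 to 2 higher genes, with 2 without control siRNA replicate 3. The fit with no filter on low counts, which also takes in the untested genes of the list, gave 1. BIRC5, the mitotic IAP survivin, fell from 226 ± 2.60 to 142 ± 6.01 CPM (log2 fold change −0.67, edgeR adjusted p = 1.18e-15). SEPT4, whose isoform ARTS antagonises XIAP, fell from 3.42 ± 0.808 to 1.94 ± 0.651 CPM (edgeR adjusted p = 0.0276), a call lost without control siRNA replicate 2 (0.175) or without BARD1 siRNA replicate 1 (0.122) or 3 (0.0873). DIABLO, the mitochondrial antagonist SMAC, had 118 counts over control siRNA and 121 over BARD1 siRNA libraries. The table has 2 overlapping genes of that name, so that its level is uncertain. Of 5 tested genes listed by a TNFAIP symbol, TNFAIP3 and TNFAIP1 rose and TNFAIP8L1 fell, with a median of 0.11. TNFAIP8L1 fell by 0.37 on the log2 scale (edgeR adjusted p = 0.00793, and 0.0628 without BARD1 siRNA replicate 2). TNFAIP3 was also counted among the receptor complex genes above.

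**Figure D5:**
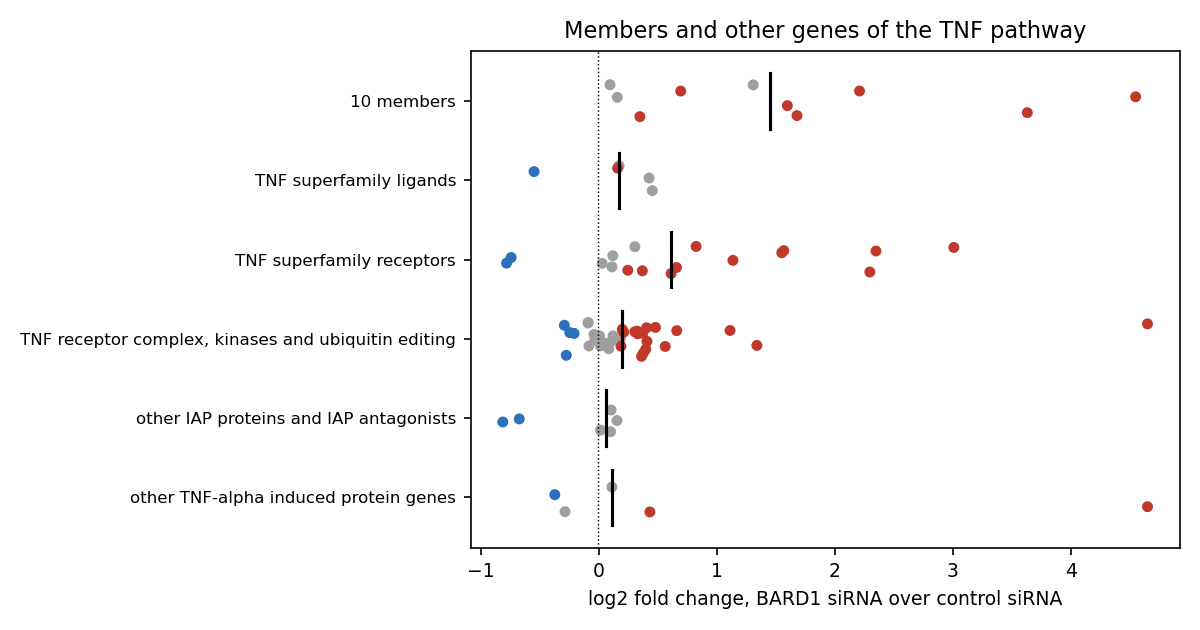
Log2 fold change of the members and of the tested genes of 5 pathway lists; each point is a gene, red called higher, blue called lower, grey not called, with a black bar at the list median and a dotted line at the median of all tested genes. The members have a median of 1.45, the receptors 0.61 and the other lists between 0.06 and 0.19. TNFAIP3 appears both in the receptor complex list and in that of the TNF-alpha induced protein genes.

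TRAF1 had the largest rise among the members, and its pattern was compared with 12786 other tested protein-coding genes by the Euclidean distance of centred log2(CPM + 0.5) over the 6 libraries. The nearest were MXD1, a partner of MAX that opposes MYC, at a distance of 0.348, CDKN1A, the cell cycle inhibitor p21, at 0.391, and the BH3-only gene BBC3 at 0.407. On that scale the difference between groups was 3.30 for TRAF1, below its fitted log2 fold change of 4.55, because its control siRNA level lies near the 0.5 CPM added. It was 3.10 for MXD1, 3.20 for CDKN1A and 3.34 for BBC3, whose fitted log2 fold changes were 3.59, 3.25 and 3.63. Because these genes were picked by the distance, their like differences between groups follow from the choice and are no separate result. TRAF1 itself passed the filter on low counts only through the BARD1 siRNA group. No member fell, and no such comparison was made in that direction.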

How the data were processed

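RNA was sequenced from 6 SKOV3ip1 libraries after poly(A) capture, per the labels' protocols. The authors deposited raw read counts per gene with no normalization. The submitters' processing notes name CASAVA, HISAT2 and GRCh38. Program versions, the counter, its annotation and whether strand was used: not given in the sources used here. Start and end of all 10 members equal those of GENCODE release 29. Because the counter and its use of strand are not given, reads in overlapping genes are uncertain in origin. The genes that overlap a member (TRAF2, TRAF3 and XIAP) had mean counts of at most 2.5. The deposited gene length, in bases, served only for levels per kb.

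Counts were tested with edgeR 4.0.16 (R 4.3.3): robust quasi-likelihood, TMM factors, group as the only term. The filterByExpr function, with a minimum count of 10 and a minimum total of 15, left 15271 of 29419 genes with any count. P-values were adjusted by Benjamini-Hochberg over these genes, with a threshold of 0.05. Folds set BARD1 siRNA against control siRNA. The SE came from the log2 fold change and the root of its F value. CPM values use the TMM factors and are given as mean ± SD. The test was tried on simulated counts. Ratios between members used exact permutation tests over libraries. Promoter windows are RefSeq's (GRCh38.p14), matched by symbol.

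Alternatives were RLE and upper-quartile factors, library size alone, DESeq2 1.42.0, no filter, 1 CPM in 3 libraries, a replicate block, no robust estimation and leaving out each library. The result of 1 listed gene is not reported here. Members and lists were chosen with earlier results of these data known. The genes named were BARD1, the members, up to 4 genes per list with the largest change past the threshold, 10 fixed partners (LTA, TNFRSF1A, TNFRSF1B, LTBR, TRADD, RIPK1, MAP3K14, CYLD, DIABLO and XAF1) and the 3 genes nearest to TRAF1. Names of septin genes that the table gives as dates were restored by gene identifier.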

Additional observations from a re-analysis of the deposited data

How the results depend on the processing

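All 7 members that rose kept their direction and their side of the threshold in each of the 14 alternative fits, as did BARD1. Members called numbered 7 to 8, and genes called 5655 to 6790, against 6462. Log2 fold changes ranged from 3.48 to 3.92 for TNF, 4.14 to 5.14 for TRAF1, 2.09 to 2.32 for BIRC3, 0.63 to 0.73 for BIRC2, 0.28 to 0.39 for XIAP, 1.53 to 1.61 for TNIP1 and 1.61 to 1.71 for TNFAIP2. TRAF3 was not called in any of them (0.03 to 0.13). LTB was not tested with 1 CPM in 3 libraries. The difference of the log2 BIRC3 to BIRC2 ratio was 1.43 to 1.64 and that of TRAF1 to TRAF2 4.09 to 5.21 over counts not divided by gene length, 0.5 added to each count and leaving out each library. The exact p of the BIRC3 to BIRC2 ratio was 0.10 in each, the smallest possible. Leaving out 1 library, TRADD ranged from −0.089 to 0.030 (above 0 without BARD1 siRNA replicate 1) and DIABLO from −0.089 to 0.40 (−0.089 and −0.053 without BARD1 siRNA replicates 1 and 2); the cause was not tested. The labels do not say whether same-numbered libraries were handled together. Deviations of same-numbered libraries from their group means had correlations of −0.01 to −0.02, which cannot settle whether they were paired. With the replicate block 7 members and 6512 genes were called. Depth limits LTB and TRAF1, with 21 and 16 control siRNA counts in all.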

Other observations

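Of the pathway lists 29 genes had too few counts to test. The 9 with at least 10 counts summed over a group, a limit set after their values were seen, are given as counts in the control siRNA and then the BARD1 siRNA libraries. With BARD1 siRNA 5 had more counts and 4 fewer. XAF1, TNFSF14 and TNIP3 met the limit only through BARD1 siRNA, and EDA, EDA2R and TNFRSF4 only through control siRNA libraries. This split thus follows in part from the limit and is no separate result. Groups that did not overlap were found for 50.4% of all tested genes, and no such share was computed for untested genes. XAF1, an interferon-induced antagonist of XIAP, had 1, 0 and 0 against 10, 14 and 1 counts, so that 1 BARD1 siRNA library lay at the level of the controls. TNFSF14, which encodes the ligand LIGHT, had 2, 0 and 4 against 12, 6 and 12 counts, with no overlap. TNIP3, a relative of TNIP1, had 0 counts in each control siRNA library against 4, 3 and 3, also with no overlap. LTA had 0, 7 and 6 against 5, 5 and 6 counts, and the IAP gene BIRC7 had 0, 3 and 7 against 3, 4 and 10. EDA, which encodes the ligand ectodysplasin A, had 10, 8 and 9 against 1, 4 and 2 counts, with no overlap. Its receptor gene EDA2R had 6, 3 and 3 against 0, 2 and 5. NAIP, a further IAP gene, had 3, 8 and 17 against 1, 6 and 3 counts, and TNFRSF4, which encodes the receptor OX40, had 4, 9 and 1 against 0, 0 and 2.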
